A study of Mus musculus with 6 samples.

Results

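The 10 genes described here encode enzymes and receptors tied to the suppressive messengers adenosine, prostaglandin E2 and cyclic AMP. Each was followed in regulatory T (Treg) cells of the neonatal liver and spleen. The genes were taken by gene symbol: Entpd1, Nt5e, Adora2a, Ada, Dpp4, Cd38, Ptger4, Ptger2, Pde4b and Pde3b. All 10 were found among the 23366 genes of the count table, and all 10 passed the filter on low counts, which kept 11716 genes. RNA was sequenced from CD4+GFP+ cells sorted by flow cytometry from Foxp3GFP knock-in mice at 12 days of age, with 3 libraries from liver and 3 from spleen. Every mouse carried the knock-in allele, in which a green fluorescent protein reports Foxp3, the transcription factor of Treg cells, so the groups differ by tissue alone as far as the labels say. The labels do not say whether a library came from 1 animal or from a pool, and p-values therefore reflect only how far these 6 samples varied, part of which may be technical.

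Treg cells are known to restrain other T cells in part through small molecules. CD39, the product of Entpd1, cuts extracellular ATP and ADP down to AMP, and CD73, the product of Nt5e, turns AMP into adenosine. Adenosine and prostaglandin E2 then act on receptors that couple to the stimulatory G protein Gs and raise cyclic AMP in the receiving cell, where phosphodiesterases break it down again. The question addressed is whether these genes stood at the same level in Treg cells of the 2 tissues.

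Depth differed between libraries. Counts in genes ranged from 8437055 to 10951720 in the liver libraries, and were 1199410, 11408960 and 11358446 in spleen 1, spleen 2 and spleen 3. The members had between 9 and 2594 reads in a library. The sort markers were as labelled: Foxp3 stood at 1266 ± 58.4 CPM (counts scaled to a library size common to all libraries) in liver and 1160 ± 57.6 CPM in the spleen (SD, n = 3 each), and Cd4 at 662 ± 28.5 and 650 ± 64.3 CPM. Spleen libraries held more transcript of other blood cells. Summed over the B and plasma cell list, levels were 131 to 156 CPM in liver libraries and 218 to 311 CPM in spleen libraries, with 4 of 8 tested genes higher in spleen. The macrophage list summed to 15.9 to 19.8 against 48.6 to 86.8 CPM (5 of 6 higher in spleen), the granulocyte list to 239 to 275 against 452 to 759 CPM (7 of 7), and the erythroid list to 0.481 to 2.69 against 52.6 to 101 CPM (4 of 4). The haemoglobin genes Hba-a1, Hba-a2 and Hbb-b1 of the erythroid list had no read in any library and add nothing to its sum. The NK and CD8 T cell list summed to 27.4 to 35.5 against 21.0 to 26.8 CPM, with 2 of 5 higher in liver and 1 in spleen. Dendritic cell markers summed to 7.50 to 11.1 against 4.30 to 10.6 CPM, with 0 of 4 passing in edgeR. Of 7 tested Treg and CD4 T cell genes 2 were higher in liver and 1 in spleen. Of 4 tested hepatocyte and sinusoid markers, 1, the albumin gene Alb, was higher in liver (5.18 ± 2.66 CPM, with no read in any spleen library) and 1, Stab2, higher in spleen.

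Of the 10 genes, 2 were higher in liver, the ectoenzyme gene Entpd1 and the adenosine receptor gene Adora2a. None was called higher in spleen, and 8 did not pass the threshold of 0.05 on the adjusted p of edgeR's quasi-likelihood test. Over all 11716 genes tested the same test called 16.2%, 9.28% toward liver and 6.9% toward spleen, so a count of 2 among 10 is near the background. Of these calls 57.4% were toward liver, or 48.5% with upper-quartile scaling, and without spleen 2 there were 722 and 486 calls in place of 1087 and 808. The median log2 fold change, liver minus spleen, was 0.12 over the 10 genes and -0.0051 over all genes tested. At an unadjusted p under 0.05 edgeR gave 2 higher in liver and 1, Dpp4, higher in spleen, while DESeq2 and limma-voom called 0 higher in spleen. In bulk RNA, fewer cells that carry a transcript and less transcript per cell cannot be told apart.

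**Figure D1:**
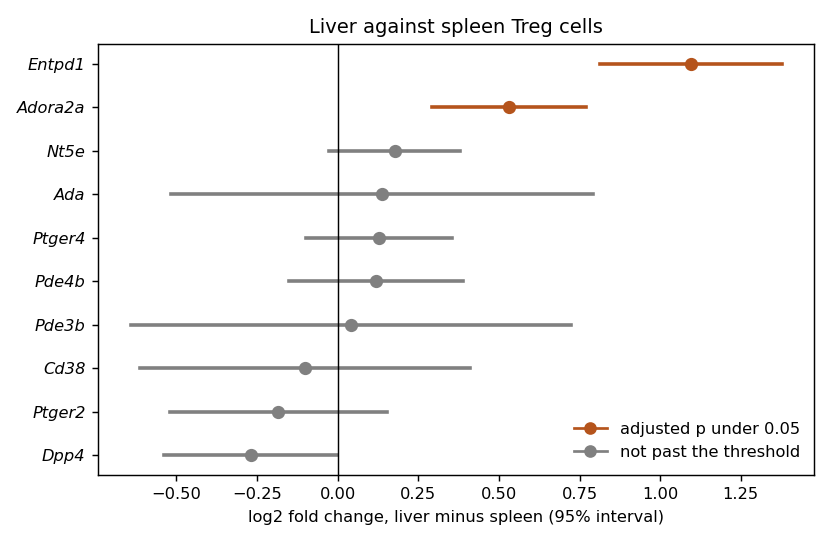
Log2 fold change of the 10 genes, liver minus spleen (horizontal axis), with the 95% interval from edgeR as a line. The intervals of Entpd1 and Adora2a lie above 0 and are coloured as past the threshold; the interval of Dpp4 ends just below 0 without passing after adjustment, and the other 7 intervals span 0.

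Upstream sequence was read for 8 of the 10 genes, in 12 start regions, from RefSeq promoters on GRCm38.p6 (the counts were made on mm9, and coordinates of the builds were not mixed). No region was at hand for Adora2a or Pde3b, so Adora2a, which was called higher in liver, was not searched. Letter patterns were searched on both strands in the 250 bases before each start: the full cyclic AMP response element TGACGTCA, its core TGACG, which every full element contains, and the forkhead pattern GTAAACA. The full element was in 0 of 12 regions against 1.55% of all 32851 RefSeq promoter regions of that length, the core in 3 of 12 against 17.8%, and the forkhead pattern in 0 of 12 against 3.17%. Both start regions of Entpd1 held the core, and so did 1 of the 4 start regions of Pde4b, which did not pass the test. In GENCODE M21 the match in the upstream Entpd1 region overlaps an exon of a neighbouring gene, and the match in the Pde4b region lies in an exon of Pde4b itself. The downstream Entpd1 region, chr19:40659520-40659769 on the plus strand, lies inside the Entpd1 gene but outside annotated exons. It is shown with those of Ptger4 (chr15:5244188-5244437, minus strand, outside annotated genes) and Dpp4 (chr2:62412232-62412481, minus strand, outside exons), which held none of the patterns. Whether the patterns go with the test results was not tested. Capitals mark the core, here on the opposite strand, 179 to 183 bases before the start. A match is a description of letters and not a bound site.
Entpd1 start region: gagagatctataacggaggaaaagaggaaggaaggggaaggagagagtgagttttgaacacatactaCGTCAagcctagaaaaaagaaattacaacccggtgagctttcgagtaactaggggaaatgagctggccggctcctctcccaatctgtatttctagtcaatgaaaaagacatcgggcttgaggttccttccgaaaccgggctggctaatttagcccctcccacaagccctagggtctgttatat
Ptger4 start region: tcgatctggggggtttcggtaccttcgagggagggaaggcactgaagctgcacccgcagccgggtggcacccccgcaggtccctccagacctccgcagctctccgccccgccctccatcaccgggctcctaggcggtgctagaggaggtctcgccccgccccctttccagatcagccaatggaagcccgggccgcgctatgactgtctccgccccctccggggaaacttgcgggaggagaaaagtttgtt
Dpp4 start region: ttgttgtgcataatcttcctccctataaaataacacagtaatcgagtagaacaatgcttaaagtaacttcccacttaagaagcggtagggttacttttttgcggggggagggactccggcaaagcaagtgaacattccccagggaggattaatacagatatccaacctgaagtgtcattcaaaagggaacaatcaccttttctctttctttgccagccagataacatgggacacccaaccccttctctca

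The adenosine-producing enzymes differed in how they compared between tissues. Entpd1 stood at 60.5, 62.9 and 64.6 CPM in the liver libraries and at 26.7, 29.7 and 29.9 CPM in the spleen libraries. Every liver library was above every spleen library, and the spread within each tissue was small (coefficient of variation 3.27% in liver and 6.31% in spleen). Among all genes tested, 32.9% had no overlap between tissues. The log2 fold change was 1.10 ± 0.13 (SE), a 2.14-fold difference with a 95% interval of 1.76 to 2.60 (edgeR adjusted p = 1.45e-05), and Entpd1 ranked 195 of 11716 by p. Spleen 1 gave only 31 reads for this gene, but its level lay close to those of the 2 deeper spleen libraries. Other blood cells are known to carry CD39 as well. Summed B cell and macrophage markers were higher in the spleen libraries, and the NK cell genes Gzma (13.3 ± 1.26 against 1.40 ± 0.661 CPM) and Klrb1c (3.80 ± 0.342 against 0.970 ± 0.844 CPM) were higher in liver. Eomes, from the same NK and CD8 T cell list, went the other way (0.825 ± 0.643 against 9.63 ± 0.757 CPM, higher in spleen). Cd8a and Cd8b1 of that list did not pass. The part of other blood cells in the level of Entpd1 was not tested.

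Nt5e had the highest level per kilobase of exon of the 10 genes in both tissues. Liver libraries held 219, 238 and 230 CPM and spleen libraries 230, 193 and 193 CPM, and spleen 1 lay within the liver range while spleen 2 and spleen 3 lay below it. The difference did not pass (log2 fold change 0.18 ± 0.10, 1.13-fold, 95% interval 0.983 to 1.30, edgeR adjusted p = 0.244). With limma-voom and sample weights it did pass, at 0.23 and an adjusted p of 0.0486. The interval leaves out a change of the size seen for Entpd1.

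As a measure that does not depend on how libraries are scaled, the ratio of Entpd1 to Nt5e reads was taken within each library. It was 0.276, 0.264 and 0.280 in liver and 0.116, 0.154 and 0.155 in spleen, so the groups did not overlap. The mean log2 ratio differed by 0.96 (exact two-sided permutation p = 0.1, the smallest that 3 against 3 libraries allow, n = 3 each). With 3 libraries each, this test cannot fall under 0.05. The ratio describes these libraries and says nothing about which of the 2 enzyme genes is fixed.

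Adora2a encodes the Gs-coupled adenosine receptor that is the main one of lymphocytes. Its level was 104, 98.8 and 115 CPM in the liver and 62.0, 75.8 and 76.8 CPM in spleen, again without overlap. It was 1.44-fold higher in liver (95% interval 1.22 to 1.70, log2 fold change 0.53 ± 0.11, edgeR adjusted p = 0.00300). Among the other adenosine receptors, Adora1 had no read in any library, and Adora2b was between 0 and 0.600 CPM and was not tested.

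**Figure D2:**
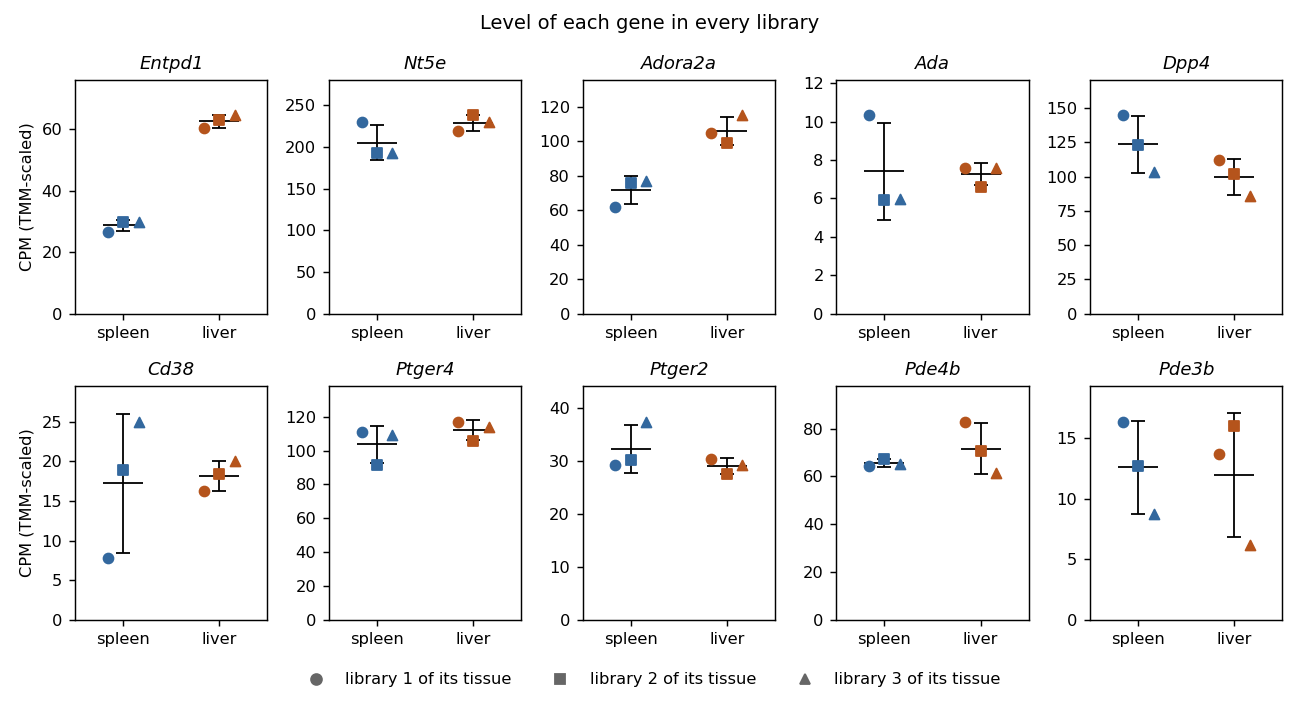
Level of each gene in CPM (vertical axes from 0, each gene on its own scale) in the 3 spleen and 3 liver libraries, with the mean and SD as bars; symbols tell libraries of 1 tissue apart and do not pair tissues. Entpd1 and Adora2a show liver libraries wholly above spleen libraries, while the other 8 overlap.

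Genes that remove adenosine or handle other extracellular substrates did not pass. Ada, adenosine deaminase, which converts adenosine to inosine, was low at 7.58, 6.60 and 7.59 CPM in the liver and 10.3, 5.91 and 5.98 CPM in spleen. The highest of these, spleen 1, rested on 12 reads. Its fitted log2 fold change was 0.14 ± 0.31 (95% interval -0.52 to 0.79, edgeR adjusted p = 0.825). The unweighted means, 7.26 CPM in the liver and 7.41 CPM in the spleen, differed in the other direction.

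Dpp4 encodes CD26, a surface peptidase known in humans to hold adenosine deaminase at the membrane. It was at 112, 102 and 85.9 CPM in the liver and at 145, 123 and 103 CPM in spleen, and the lowest spleen library lay inside the liver range. The difference was toward spleen but did not pass (log2 fold change -0.27 ± 0.13, 95% interval -0.54 to -0.00087, edgeR adjusted p = 0.175).

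Cd38, an NAD-consuming ectoenzyme that can also feed adenosine production, was the most variable of the 10 genes in spleen, with 7.75, 18.9 and 25.0 CPM (coefficient of variation 50.9%) against 16.2, 18.4 and 20.004 CPM in liver. The spleen libraries enclosed the liver range on both sides. The lowest value, in spleen 1, came from 9 reads, whose exact 95% Poisson interval of 3.54 to 14.7 CPM covers counting error only. The fitted difference was -0.10 ± 0.24 (95% interval -0.61 to 0.41, edgeR adjusted p = 0.839); the unweighted means were 18.2 CPM in the liver and 17.2 CPM in spleen, and the fitted value turned positive, at 0.22, without spleen 3. Cd38 is also known on B cells, whose summed markers were higher in spleen; their part in its level was not tested.

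The ratio of Adora2a to Ada reads was 13.8, 15.0 and 15.1 in liver and 6.0, 12.8 and 12.8 in spleen. The mean log2 ratio differed by 0.55 (exact two-sided permutation p = 0.1, the smallest possible, n = 3 each). Much of this rested on spleen 1, without which the difference was 0.19.

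Both Gs-coupled receptors of prostaglandin E2 were detected and neither passed. Ptger4, which encodes the EP4 receptor, was at 117, 105 and 114 CPM in the liver and 111, 91.2 and 109 CPM in spleen, with overlapping ranges (log2 fold change 0.13 ± 0.11, 95% interval -0.10 to 0.36, edgeR adjusted p = 0.478). Ptger2, which encodes the EP2 receptor, was at 30.4, 27.5 and 29.2 CPM in the liver and 29.3, 30.2 and 37.4 CPM in spleen, also overlapping (-0.18 ± 0.16, 95% interval -0.52 to 0.15, edgeR adjusted p = 0.498). In GENCODE M21 1.87% of the exon bases of Ptger2 are shared with an antisense gene. Thinned to equal depth the Ptger2 value was 0.14, on the other side of 0.

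The read ratio of the receptors was taken next. Ptger4 reads outnumbered Ptger2 reads by 3.85, 3.83 and 3.90 in the liver libraries and by 3.79, 3.02 and 2.91 in the spleen libraries. The groups did not overlap, but spleen 1, with 129 Ptger4 and 34 Ptger2 reads, came within a small margin of liver. The counting error of its ratio was not assessed. The mean log2 ratio differed by 0.26 (exact two-sided permutation p = 0.1, the smallest possible, n = 3 each).

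**Figure D3:**
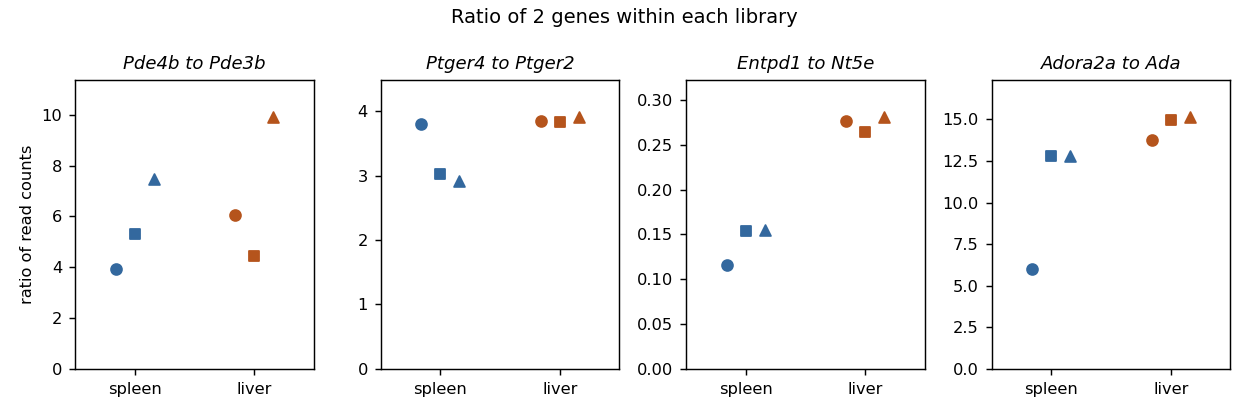
Ratio of the read counts of 2 genes within each library (vertical axes from 0) for spleen and liver, 1 symbol per library. Entpd1 to Nt5e separates the tissues most clearly, at 0.264 to 0.280 in liver and 0.116 to 0.155 in spleen; Pde4b to Pde3b overlaps.

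The 2 phosphodiesterase genes among the 10 also did not pass. Pde4b, a cyclic AMP-specific enzyme induced by T cell activation, was at 83.0, 70.7 and 61.4 CPM in the liver and 64.6, 67.4 and 65.0 CPM in spleen. The liver libraries enclosed the spleen range, and the log2 fold change was 0.12 ± 0.13 (95% interval -0.15 to 0.39, edgeR adjusted p = 0.597). Pde3b, a phosphodiesterase gene that Foxp3 is known to repress, was at 13.7, 15.96 and 6.21 CPM in the liver and 16.4, 12.7 and 8.72 CPM in spleen.

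The level of Pde3b varied more within a tissue than between tissues: the highest liver library was 2.57 times the lowest, and the fitted difference was 0.04 ± 0.32 (95% interval -0.64 to 0.72, edgeR adjusted p = 0.954). That interval is wide enough to hold a change of 1.65-fold toward liver or of a similar size toward spleen, and its sign turned under 5 of 15 other settings. Pde4b exceeded Pde3b by read ratios of 6.05, 4.43 and 9.90 in liver and 3.95, 5.32 and 7.46 in spleen. The log2 ratios differed by 0.25 with overlapping groups (exact two-sided permutation p = 0.6, n = 3 each). Without spleen 1 that difference was 0.029, and without liver 3 it was -0.058.

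Levels of different genes were compared as CPM per kilobase of exon, using merged exons of GENCODE M21, so unused alternative exons lower a value. In liver the order of mean levels was Nt5e (57.3), Adora2a (40.8), Ptger4 (33.7), Dpp4 (19.0), Entpd1 (14.4), Pde4b (8.79), Ptger2 (7.88), Cd38 (5.57), Ada (4.30) and Pde3b (1.82). Only Pde4b and Ptger2 were neighbours whose liver libraries overlapped. In spleen the order was Nt5e (51.4), Ptger4 (31.2), Adora2a (27.5), Dpp4 (23.5), Ptger2 (8.76), Pde4b (8.05), Entpd1 (6.62), Cd38 (5.27), Ada (4.39) and Pde3b (1.91). There the neighbours Ptger4 and Adora2a, Adora2a and Dpp4, Ptger2 and Pde4b, Entpd1 and Cd38, and Cd38 and Ada overlapped. Entpd1 stood in place 5 in liver and place 7 in spleen, and Nt5e exceeded it per kilobase in every library.

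**Figure D4:**
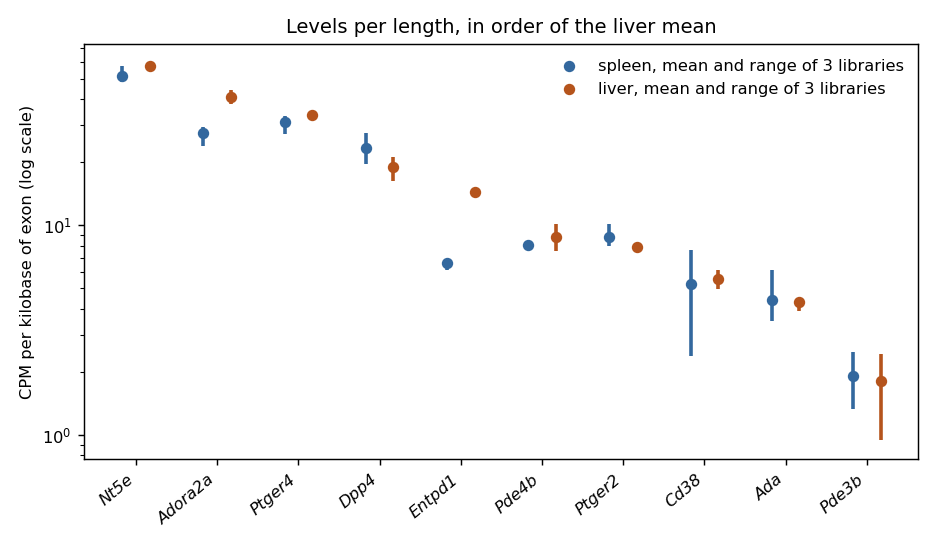
Level per kilobase of exon (vertical axis, log scale) of the 10 genes, ordered by the liver mean; points are means and lines the range of 3 libraries in each tissue. Nt5e is highest and Pde3b lowest in both tissues, and Entpd1 shows the widest gap between tissues.

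By Pearson's r of log2 CPM over the 6 libraries, among 8755 other genes with a mean of at least 10 CPM, the genes most like Entpd1 were Aspm (r = 0.999), Foxm1 (r = 0.998) and Kif11 (r = 0.997), all known for roles in mitosis. Aspm, for instance, was at 90.5, 103 and 101 CPM in the liver and 28.4, 31.0 and 32.1 CPM in spleen. Those most like Dpp4, the member with the smallest p toward spleen, were Stk10, Ipo5 and Cul5 (r = 0.998, 0.998 and 0.997). The 6 points share the tissue difference and library depth, and r is given here as a description.

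Around the 10 genes, 99 genes of 8 pathway lists were tested, of which 12 were called toward liver and 11 toward spleen, beside 9.28% and 6.9% of all genes tested. The latter count was 7 without liver 2, 6 without liver 3 and 7 without spleen 2. Of 20 genes that handle nucleotides and adenosine, outside or inside the cell, 1 was called toward liver, 4 toward spleen, and 15 were not called (median log2 fold change -0.16). Panx1, a channel that releases ATP, was higher in liver (92.9 ± 9.43 against 68.4 ± 7.78 CPM). Ampd3, an AMP deaminase (26.9 ± 3.002 against 46.1 ± 4.78 CPM), and the nucleoside transporter genes Slc29a3 (40.1 ± 6.71 against 61.3 ± 5.72 CPM) and Slc28a2 (260 ± 12.4 against 331 ± 38.1 CPM) were higher in spleen, as was Entpd6, a relative of Entpd1 (log2 fold change -0.44 ± 0.14, edgeR adjusted p = 0.0361). The calls of Panx1, Slc29a3, Slc28a2 and Entpd6 were lost in 3, 1, 5 and 7 of 15 other settings, among them leaving out spleen 2 for each, and that of Ampd3 in 0. Slc28a2 has a near-identical copy in the table, Gm14085, and its level is uncertain.

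The purine receptor list, drawn up by gene family, held the 2 smallest p-values of the pathway lists. P2rx7, the ATP-gated channel known to make Treg cells sensitive to extracellular ATP and NAD, was at 167, 151 and 160 CPM in the liver and 293, 326 and 303 CPM in spleen. Every spleen library was above every liver library, with a log2 fold change of -0.95 ± 0.09 (edgeR adjusted p = 1.19e-06). P2ry10, a lymphocyte receptor gene placed in this family by its symbol but known to respond to lysophosphatidylserine rather than to nucleotides, went the other way, at 197, 224 and 234 against 124, 118 and 119 CPM (0.87 ± 0.10, edgeR adjusted p = 6.06e-06). Neither gene's groups overlapped, and both calls were kept in all 15 other settings; the other 3 tested purine receptor genes did not pass (list median -0.27).

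Of 10 tested synthesis, transport and breakdown genes, 0 were higher in liver and 1, the prostaglandin-degrading enzyme gene Hpgd, was higher in spleen (median -0.21). Of 4 further prostanoid receptors 1, Ptger3, which couples to the inhibitory G protein, was higher in spleen (median -0.48). Both rested on few reads: Hpgd was at 0.276 ± 0.330 against 2.63 ± 1.54 CPM and Ptger3 at 0.354 ± 0.219 against 2.66 ± 1.42 CPM, near the 2.58 CPM that 3 reads are worth in spleen 1, and their calls were lost in 5 and 4 of 15 other settings, among them without liver 3 for both. Hpgd was also lost without liver 1 or spleen 3, and Ptger3 without liver 2. Ptgs2, the inducible cyclooxygenase gene, was at 0 to 0.459 CPM and was not tested.

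The next list held genes of adenylyl cyclases, which make cyclic AMP, and of G protein subunits, not only that of Gs. The cyclase gene Adcy7 was at 474 ± 12.97 CPM in the liver and 443 ± 8.67 CPM in the spleen and did not pass (log2 fold change 0.10 ± 0.09, edgeR adjusted p = 0.512). Gnas, which encodes the Gs alpha subunit, was at 641 ± 15.1 and 636 ± 12.6 CPM (0.01 ± 0.09, edgeR adjusted p = 0.956). Adcy6, a cyclase inhibited by calcium, was higher in spleen, at 88.1, 88.3 and 74.4 CPM in the liver and 144, 159 and 182 CPM in the spleen (-0.97 ± 0.11, edgeR adjusted p = 6.74e-06), in all 15 other settings too. In GENCODE M21 10% of the exon bases of Adcy6 are shared with the antisense gene Gm29331. Those of Gnas are shared with Gm20721 (14.2%) and Nespas (9.52%), both on the other strand. Gna13, the gene of a G protein subunit other than Gs, was higher in liver by 0.28 ± 0.09. That call was lost in 9 of 15 settings, among them without liver 1, liver 2 or any 1 of the spleen libraries. The other 11 of 13 tested genes did not pass, and the list median was 0.15.

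Of 12 other phosphodiesterase genes 2 were called toward liver and 0 toward spleen by edgeR, and 10 were not called (median 0.11). Pde2a, whose product is stimulated by cyclic GMP, was at 293, 273 and 248 CPM in the liver and 163, 144 and 150 CPM in spleen, without overlap. Its log2 fold change was 0.85 ± 0.10 (edgeR adjusted p = 8.22e-06), kept in all 15 other settings, but 87.9% of its exon bases are shared with the overlapping gene Gm45837 in GENCODE M21, so its level is uncertain. Pde4d, a relative of Pde4b, was at 85.7, 86.7 and 84.9 against 59.4, 64.2 and 49.8 CPM (0.58 ± 0.12, edgeR adjusted p = 0.00294), which did not pass when libraries were thinned to equal depth. Pde7a was at 29.4 ± 3.30 and 33.8 ± 2.96 CPM and did not pass.

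Further down the pathway, 24 genes of protein kinase A, its anchors, the Epac exchange factors and the CREB family were tested, of which 2 were called toward liver and 2 toward spleen (median -0.16). Crtc3, a CREB coactivator gene, was at 243, 206 and 190 CPM in the liver and 133, 143 and 144 CPM in the spleen (log2 fold change 0.60 ± 0.10, edgeR adjusted p = 0.000542). Crem, a CREB relative that cyclic AMP induces, was higher in liver at 19.3 ± 1.74 against 11.3 ± 0.894 CPM, a call lost in 4 of 15 settings, among them without liver 2, spleen 2 or spleen 3. The anchor gene Akap11 (-0.51 ± 0.12) and Rapgef4 (-0.76 ± 0.24), which encodes an Epac protein, were higher in spleen. The Rapgef4 call was lost without any 1 of liver 1, liver 2, liver 3, spleen 1 or spleen 2, and the Akap11 call at equal depth. Prkaca, a catalytic subunit of protein kinase A, did not pass (-0.18 ± 0.13, edgeR adjusted p = 0.405).

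Of 13 genes known to respond to cyclic AMP, 7 were called toward liver, 1 toward spleen, and 5 were not called, with a median log2 fold change of 0.45, beside 9.28% toward liver, 6.9% toward spleen and a median of -0.0051 over all genes tested. Crem and Pde4d are counted here as well as in their own lists, and most of these genes also respond to other stimuli. Rgs2, a brake on G protein signals, was at 122, 82.3 and 104 CPM in the liver and 74.0, 61.9 and 59.4 CPM in the spleen (0.70 ± 0.14, edgeR adjusted p = 0.00188), and Junb was at 1837 ± 229 against 1343 ± 60.0 CPM. Sik1 (0.66 ± 0.15) and Dusp1 (0.55 ± 0.13) were higher too. Sik1 was at 273, 169 and 178 CPM in the liver and 108, 129 and 144 CPM in the spleen. Dusp1 was at 711, 474 and 503 against 393, 379 and 378 CPM. Liver 1 was the highest liver library in 10 of the 13 genes. Fos and Fosb, named after their values were seen, did not pass and show it too: Fos was at 852, 572 and 593 CPM in the liver libraries and Fosb at 796, 377 and 409 CPM. Without liver 1 the count called toward liver was 6. Rgs2, Junb, Sik1 and Dusp1 kept their calls in all 15 other settings, leaving out liver 1 among them. Their lowest log2 fold changes over these settings were 0.56, 0.36, 0.42 and 0.35. What set liver 1 apart was not tested. Areg was below 2 CPM in every library, and its call was lost in 7 settings, among them without liver 1, liver 3, spleen 2 or spleen 3. The nuclear receptor gene Nr4a3 was higher in spleen, at 11.9, 22.2 and 17.8 against 14.6, 39.7 and 44.0 CPM with overlapping libraries, a call lost in 3 settings that included leaving out spleen 3.

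**Figure D5:**
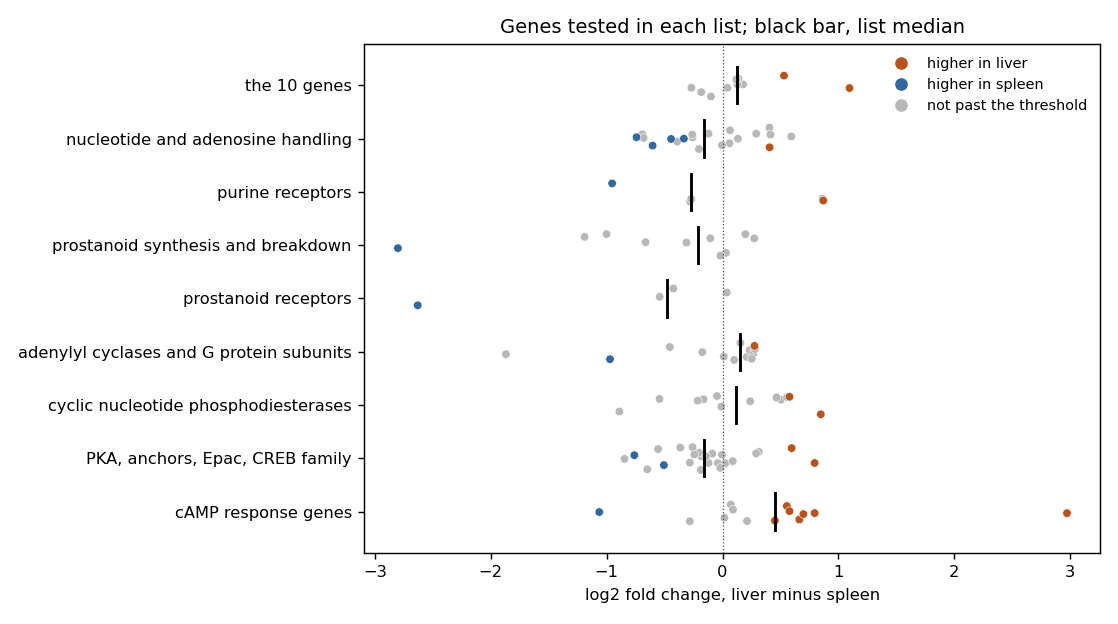
Log2 fold change, liver minus spleen (horizontal axis), of each tested gene in the set of 10 and in the 8 pathway lists; colours mark genes past the threshold in either direction, and black bars are list medians. The medians lie between -0.48 for the prostanoid receptors and 0.45 for the cyclic AMP response genes.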

How the data were processed

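RNA-seq counts were available for 6 libraries of sorted CD4+GFP+ Treg cells, 3 from liver and 3 from spleen, numbered in accession order within a tissue. The authors deposited unnormalized counts for each gene symbol. HISAT2 2.1, HTSeq 0.11 and the build mm9 are named in the submitters' processing notes; the annotation and strand setting were not given in the sources used here. Between 25.5% and 29.0% of the counts of a library stood in HTSeq summary rows, which were left out, among them reads aligned to more than 1 place.

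Genes were filtered with filterByExpr, TMM-scaled and compared by the quasi-likelihood F test in edgeR 4.0.16 in R 4.3.3, liver minus spleen, with Benjamini-Hochberg adjustment over 11716 genes. CPM are relative to the TMM-scaled totals, and levels are mean ± SD. The standard error (SE) follows from the F statistic. Other settings were DESeq2 1.42.0, limma 3.58.1 (voom), other scalings and filters, thinning and leaving out each library.

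The members and lists were chosen with earlier results of these data known. All 10 members are named; of each pathway list, the called genes with the smallest p (at most 4) and further listed genes, apart from a result that is not reported here; of marker lists, examples. Exon lengths and overlaps came from GENCODE M21 (GRCm38). The test was also run on counts simulated from its own fitted dispersions, which cannot show whether it holds for these libraries. Intervals cover counting error or the spread between libraries as stated.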

Additional observations from a re-analysis of the deposited data

How the results depend on the processing

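Over 15 other settings the count of members higher in liver was 2 to 3 and that of members higher in spleen 0, and Entpd1 (adjusted p at most 0.000306) and Adora2a (adjusted p at most 0.0416) passed in each. Of 149 member values under these settings, 140 kept their direction and side of the threshold, 1 (Nt5e with limma-voom) passed anew, and 8 turned sign, none of them past the threshold; Ada could not be tested at equal depth. Those that turned were Cd38 at equal depth (0.17) and without spleen 3 (0.22), Ptger2 at equal depth (0.14), and Pde3b with upper-quartile scaling (-0.0062), with the DESeq2 Wald test (-0.0061) and without liver 1 (-0.062), liver 2 (-0.24) or spleen 3 (-0.21). With a library left out Cd38 ranged from -0.27 to 0.22 and Pde3b from -0.24 to 0.36. The Pde4b to Pde3b log2 ratio ranged from -0.058 to 0.52 with a library left out and turned without liver 3. The cause was not tested.

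Over all genes the counts of 1087 higher in liver and 808 higher in spleen became 596 and 419 at equal depth, where fewer genes were tested, and 722 and 486 without spleen 2; limma-voom gave 1243 higher in spleen. With a library left out they ranged from 722 to 1245 and from 486 to 989. Pathway genes higher in liver numbered 12, or 19 with limma-voom and 8 to 16 with a library left out; those higher in spleen numbered 11, or 20 with limma-voom, 6 at equal depth and 6 to 11 with a library left out. Spleen 1, at 1199410 counts, limits the low genes. No paired analysis was possible because the labels give no replicate number shared between tissues: titles number the libraries in turn, alternating liver and spleen, and do not say that neighbours come from the same animals.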
